A study of Mus musculus with 16 samples.

Results

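Excitation-contraction coupling and calcium release were followed through 10 of the 23235 genes of the mRNA table across 16 male C57BL/6J mice. They were chosen by name: Cacna1s, Cacnb1, Cacng1 and Stac3 of the voltage sensor, Ryr1 and Trdn of the release channel, Jph1 and Jph2 of the membrane junction, Srl of the calcium store and Sln of the calcium pump. All 10 were in the table, as 44 transcripts, and all 10 passed the filter on low counts. RNA from skeletal muscle was sequenced in 4 groups of 4 mice. The control group was kept on a normal diet. The other 3 groups were fed a high-fat diet (HFD) from 6 weeks of age, and after 8 weeks the HFD + RSV group received resveratrol and the HFD + MET group metformin for 6 weeks, while the HFD group received neither. The comparisons ask what the diet and each treatment did to muscle RNA. Which muscle was taken and the metformin dose are not stated. Some mice of the study were given insulin shortly before tissue collection, and whether the sequenced mice were among them is not stated.

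In a skeletal muscle fibre, an action potential runs into the transverse tubules and moves the voltage sensor, the L-type calcium channel whose pore subunit is Cacna1s, with Cacnb1 and Cacng1 as auxiliary subunits and Stac3 as the adaptor that lets the sensor work. The sensor pulls open Ryr1, the release channel of the sarcoplasmic reticulum, which triadin (Trdn) anchors to the luminal calcium buffer calsequestrin. Junctophilins (Jph1, Jph2) bind the tubule to the reticulum and hold both channels opposite each other, sarcalumenin (Srl) binds calcium inside the reticulum, and the pump Atp2a1 returns calcium to it. Sarcolipin (Sln) is a short membrane peptide that inhibits the pump and uncouples its ATP use from calcium transport, and in rodents it is known from slow and oxidative muscle and from the atria.

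Both Cacna1s and Ryr1 have a small optional exon that is known to be used differently in developing and adult muscle, and Sln is a very short coding sequence. All 3 sequences are given 5′ to 3′ from the GRCm38 genome with GENCODE M21 annotation, the first pair because transcript results turn on these exons and Sln because it departs from the other genes. For Cacna1s, capitals mark exon 29 of 44 (57 coding bases, chr1:136104570-136104626, plus strand), with 20 bases of each neighbouring exon in lower case. This exon encodes part of the extracellular loop before the last voltage-sensing segment, and it is in ENSMUST00000160641 and ENSMUST00000112064 and absent from ENSMUST00000112068. For Ryr1, capitals mark exon 70 of 106 (15 coding bases, chr7:29056234-29056248, minus strand), which is in ENSMUST00000179893. ENSMUST00000032813 has no exon with these exact ends, and its annotation also differs by a few bases at the neighbouring exons. Both transcripts have 106 exons, with lengths of 15358 and 15352 bases, and whether ENSMUST00000032813 lacks all 15 bases was not tested. For Sln, the whole coding sequence of 96 bases (chr9:53853473-53853568, plus strand, exon 2 of 2) is given with its start and stop codons in capitals.
Cacna1s exon 29: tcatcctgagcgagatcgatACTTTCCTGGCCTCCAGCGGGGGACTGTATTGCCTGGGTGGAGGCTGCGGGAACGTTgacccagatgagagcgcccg
Ryr1 exon 70: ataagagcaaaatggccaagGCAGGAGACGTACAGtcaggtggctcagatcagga
Sln coding sequence: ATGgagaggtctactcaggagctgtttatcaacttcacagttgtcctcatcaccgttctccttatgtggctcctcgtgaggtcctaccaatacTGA

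The libraries held between 20281801 and 34021101 counts in the mRNA and lncRNA tables together. Levels are given as CPM, the read count relative to the library total after TMM scaling, or as FPKM, which also divides by transcript length, where genes are compared with each other. A few libraries stood apart in the level of 8 fibre markers. None of the 8 is a slow fibre marker, and Myh1, Myh4, Mylpf, Tnnt3 and Tnni2 are also fast fibre markers. The sum thus depends on fibre type as well as on fibre amount. Myh4, the highest of the 8, had 54143, 27329, 28840 and 29210 CPM in control mice 1 to 4, and at least 51671 CPM in HFD mice. Acta1 had 17168 CPM in control mouse 4 and 16908 to 18079 CPM in HFD mice. The summed level of 8 fibre markers was at most 77662 CPM in control mice 2, 3 and 4 and HFD + MET mouse 3, and at least 90631 CPM in the other 12 libraries. Control mouse 3 and HFD + MET mouse 3 also had the highest summed levels of 7 white adipocyte markers, with 4716 and 4381 CPM against 208 to 1755 CPM in the others. The summed level of 8 slow fibre markers was 40.1, 1733, 760 and 1194 CPM in control mice 1 to 4, 34.6 to 166 CPM in the HFD group, 72.3 to 1033 CPM in the HFD + RSV group and 122 to 401 CPM in the HFD + MET group. Control mouse 1 was like the HFD mice in both fibre sums. The labels' extraction text names retina, but the 4 retina markers in the table (of 6 listed) summed to at most 1.33 CPM. All 4 HFD mice share the leading number in their labels, while the other groups carry 2 or more, and since its meaning is not given it cannot be told apart from the diet within the HFD group.

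Per length, Ryr1 was the most abundant of the 10 and Sln the least. Over all 16 mice the FPKM was 574 ± 76.6 for Ryr1, 313 ± 38.4 for Srl and 186 ± 21.5 for Cacna1s (SD, n = 16). These 3 did not overlap in any pair of mice, since the lowest Ryr1 value was 420 against a highest Srl value of 355, and the lowest Srl value was 224 against a highest Cacna1s value of 214. Below them lay 5 genes whose ranges overlapped and whose order is not fixed beyond their spread, namely Jph1 (102 ± 17.5), Trdn (102 ± 14.0), Jph2 (99.1 ± 24.5), Cacng1 (94.1 ± 18.04) and Stac3 (89.7 ± 20.2 FPKM). The Trdn value leaves out 168801 counts assigned to an lncRNA inside its last exon, more than the 143719 of Trdn itself. The place of Trdn below Srl and Cacna1s therefore depends on how these reads were divided. Cacnb1 followed with 37.5 ± 4.98 FPKM, and its highest value of 44.9 was below the lowest Stac3 value of 57.6. The Stac3 value includes ENSMUST00000160610, a transcript of only 373 bases with 16.5% of the gene's counts, whose short length raises the FPKM of the gene. Whether Stac3 stays above Cacnb1 without it was not tested. Sln had 0.620 ± 0.701 FPKM, with 344 counts over all 16 libraries, so it was near the limit of what these libraries can measure. Across the 16 mice the 9 genes other than Sln moved together, with a median Spearman rho of 0.81 over 36 pairs (lowest 0.50, highest 0.93), and the rho of Sln with each of the 9 lay between -0.39 and -0.11. These points share each library's mix of fibre and other RNA and are given as a description.

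**Figure D1:**
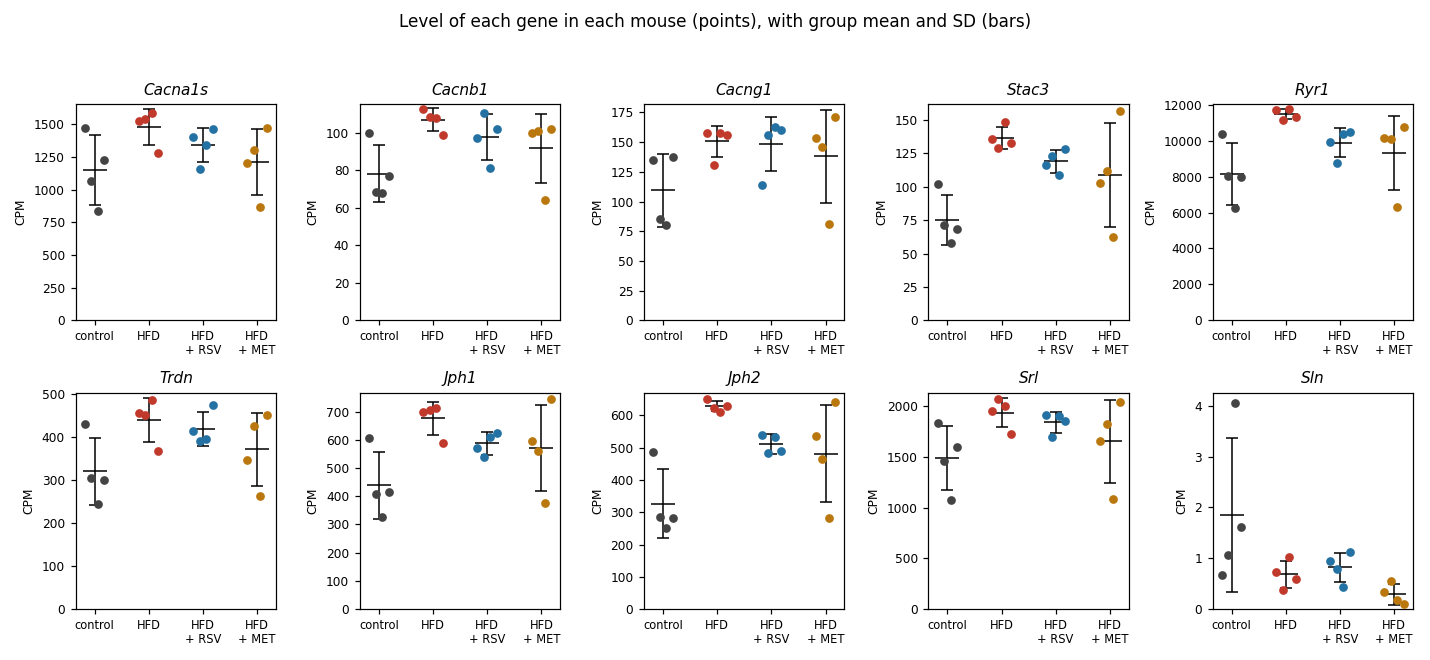
Level of each of the 10 genes in CPM (vertical axes, from 0) in the 4 mice of each group (points), with the group mean and SD (bars). For Jph2 the HFD mice lie between 612 and 650 CPM and every control mouse lies below them, and for Sln control mouse 3 stands above all other mice at 4.065 CPM.

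In the HFD group, Jph2 and Stac3 were higher than in control mice. They were 2 of the 10 genes called higher at an adjusted P < 0.05 by edgeR's quasi-likelihood test, where 1.32% of the 15364 genes tested were called higher and 1.11% lower, and none of the 10 was called lower. The other genes of the machinery other than Sln had positive log2FC values between 0.36 and 0.62 without a call. The median log2FC of the 10 was 0.46, against -0.02 over all genes tested. At an unadjusted P < 0.05, 6 of the 10 were higher (Jph2, Stac3, Jph1, Cacnb1, Ryr1 and Trdn), where 11.7% of all genes were.

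The junctophilin genes lie at chr2:163336242-163397993 (Jph2) and chr1:16964560-17097889 (Jph1), both on the minus strand of GRCm38. Jph2 had 486, 286, 250 and 283 CPM in control mice 1 to 4 and 650, 624, 612 and 629 CPM in HFD mice 1 to 4. Every HFD mouse was above every control mouse, and control mouse 1 was the only control above 286 CPM. The log2FC was 0.95 ± 0.22 (SE, n = 4 and 4, adjusted P = 0.0462), and the exact two-sided permutation test gave P = 0.0286, the smallest that 4 mice against 4 allow. Jph1, the junctophilin found mainly in skeletal muscle, had 606, 409, 326 and 414 CPM in the control mice and 699, 705, 714 and 590 CPM in the HFD mice. Control mouse 1 lay above HFD mouse 4, so the groups overlapped, and the log2FC of 0.62 ± 0.20 had an adjusted P of 0.0837 in edgeR's test.

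Among the voltage sensor genes, Stac3 (chr10:127501686-127508823, plus strand) had 102, 71.5, 58.2 and 68.0 CPM in control mice 1 to 4 and 135, 129, 148 and 133 CPM in HFD mice 1 to 4. The groups did not overlap, the log2FC was 0.87 ± 0.22, and edgeR's adjusted P of 0.0499 was just under the threshold (exact permutation P = 0.0286). The channel subunits were less far apart. Cacnb1 ranged from 67.8 to 100 CPM in the control group and from 98.7 to 113 CPM in the HFD group (log2FC 0.45 ± 0.16, edgeR adjusted P = 0.103). Cacng1 ranged from 80.6 to 137 and from 131 to 158 CPM (0.46 ± 0.22, edgeR adjusted P = 0.218). The pore subunit Cacna1s ranged from 840 to 1475 and from 1279 to 1584 CPM (0.36 ± 0.18, edgeR adjusted P = 0.229). In all 3 at least 1 control mouse lay within the HFD range.

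The release channel Ryr1 (chr7:29003344-29125179, minus strand) had 10387, 8024, 6235 and 7963 CPM in control mice 1 to 4 and 11727, 11177, 11754 and 11310 CPM in HFD mice 1 to 4. The groups did not overlap (exact permutation P = 0.0286), but the log2FC of 0.50 ± 0.18 was not called (edgeR adjusted P = 0.119). Jph2, Stac3 and Ryr1 were the 3 of the 10 genes in which every HFD mouse was above every control mouse, a separation seen in 8.83% of all genes. Trdn ranged from 245 to 430 CPM in the control group and from 367 to 485 CPM in the HFD group (0.46 ± 0.18, edgeR adjusted P = 0.145). The store protein gene Srl ranged from 1073 to 1833 and from 1730 to 2068 CPM (0.38 ± 0.18, edgeR adjusted P = 0.221). Control mouse 1 had the highest control level of Trdn and of Srl and lay within the HFD range of both.

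Both calls depended on which mice entered the fit. Leaving out any 1 of control mice 2, 3 and 4 or of the 4 HFD mice left none of the 10 genes called by edgeR, with adjusted P values up to 0.136 for Jph2 and 0.156 for Stac3, while leaving out control mouse 1 gave 5 called genes (Cacnb1, Stac3, Trdn, Jph1 and Jph2). The fit to the 12 mice without the HFD + MET group called 4 and DESeq2 called 5, with Jph2 and Stac3 among them in each. Without control mouse 3 and HFD + MET mouse 3 together, the libraries with the most adipocyte RNA, Jph2 (0.83, adjusted P = 0.0236) and Stac3 (0.76, adjusted P = 0.0238) were called by edgeR.

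Low levels of most of these genes fell in libraries with low summed fibre markers. The 4 libraries lowest in the 8 fibre markers were also the 4 lowest in 7 of the 10 genes (Cacnb1, Stac3, Ryr1, Trdn, Jph1, Jph2 and Srl). The share of all genes with this order was not computed. Control mice 2, 3 and 4 are among these libraries, so a gene higher in HFD than in control mice tends to have them lowest. The summed fibre markers were 59025 to 99072 CPM in control mice and 94050 to 105768 CPM in HFD mice. In bulk tissue, fewer fibres, another mix of fibre types and less RNA per fibre cannot be told apart. The 8 markers hold fast but no slow fibre markers, so scaling to them is not a scaling to fibre amount alone. When libraries were scaled to the 8 fibre markers, the median log2FC of all genes moved to -0.47, none of the 10 genes was called, and Cacna1s (-0.039) and Srl (-0.027) changed sign. On that scale Jph2 had a log2FC of 0.56 ± 0.11 (edgeR adjusted P = 0.0707) and Stac3 of 0.47 ± 0.13 (edgeR adjusted P = 0.0756).

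Ratios within a library show the same genes without any scaling between libraries, and they were chosen after the values were seen. Per 1000 counts of the 8 fibre markers, Jph2 had 4.91, 4.17, 4.24 and 3.65 counts in control mice 1 to 4 and 6.14, 6.16, 6.04 and 6.69 in HFD mice 1 to 4. The 4 HFD + RSV mice (4.99 to 5.95) and the 4 HFD + MET mice (4.93 to 5.83) all lay above every control mouse and below every HFD mouse. Control mouse 1 was the highest control on this ratio, next to the lowest HFD + MET mouse at 4.93. Stac3 had 0.876 to 1.04 counts per 1000 in the control group and 1.27 to 1.47 in the HFD group, also without overlap, with 1.13 to 1.32 in the HFD + RSV group and 1.06 to 1.43 in the HFD + MET group. The share of all genes that separate the groups on this ratio was not computed. Ryr1 itself had 103 to 117 in the control group and 110 to 120 in the HFD group, which overlapped. The part of fibre amount or fibre type in the differences of CPM was not tested further. Nor was that of the white adipocyte markers, whose sum was 1043 to 4716 CPM in the control group and 208 to 1034 CPM in the HFD group. Of the marker lists, 1 held calls for HFD against control, the brown adipocyte list, with 2 of its 6 genes lower and a median log2FC of -3.73. Its sum was 191 to 894 CPM in control mice and 145 to 181 CPM in HFD mice. In that sum Cox7a1 (97.5 to 128 and 93.6 to 111 CPM) and Ppargc1a (40.0 to 65.5 and 36.2 to 82.3 CPM) overlapped between the groups, as did Dio2. Ucp1 had 3.12 to 408 CPM in control mice and 0.249 to 1.06 CPM in HFD mice. Cidea had 21.5 to 285 and 0.779 to 2.39 CPM, and Elovl3 was also lower in every HFD mouse. The part of these genes was not tested either.

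**Figure D2:**
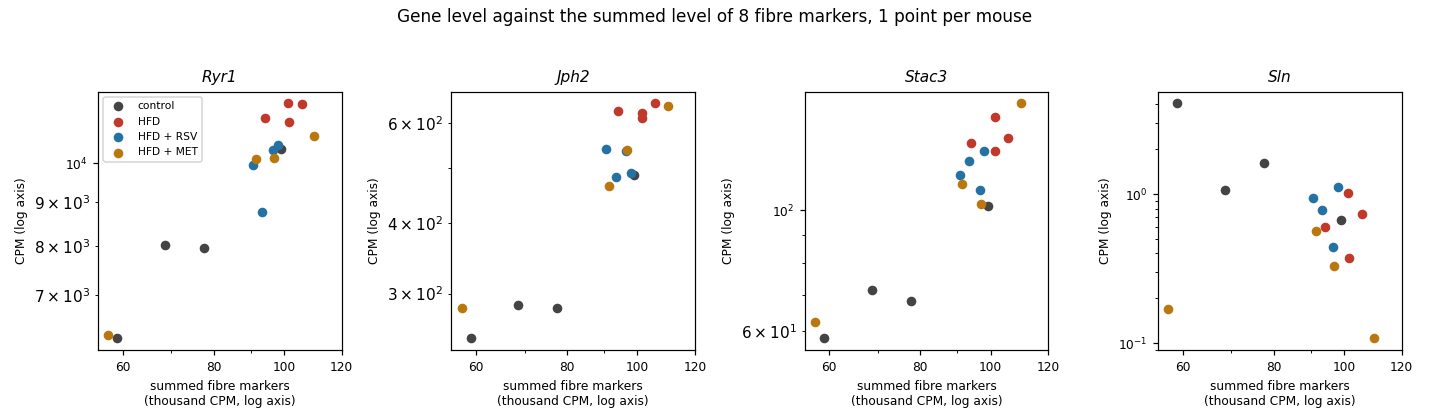
CPM of Ryr1, Jph2, Stac3 and Sln (vertical, log axes) against the summed CPM of 8 fibre markers (horizontal, log axes), 1 point per mouse and colour per group. Control mice 2 to 4 and HFD + MET mouse 3 sit at the low left for Ryr1, Jph2 and Stac3, at most 77662 CPM of fibre markers, whereas Sln is highest in control mouse 3.

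Resveratrol left no gene of the machinery called against the HFD group. By edgeR 0 of the 10 genes were called at an adjusted P < 0.05 (0.0% of all genes were) and 0 at an unadjusted P < 0.05 (4.72% of all genes), and DESeq2 and limma called 0. No gene of the 10 passed the rule of an unadjusted P < 0.05 with an absolute log2FC above 1, which 1.08% of all genes passed. The log2FC values of the 9 genes other than Sln lay between -0.30 and -0.02, with a median of -0.14 for the 10 against 0.00 for all genes.

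The HFD + RSV mice nevertheless lay below the HFD mice in 3 genes. Jph2 had 539, 483, 534 and 489 CPM in HFD + RSV mice 1 to 4, all under the lowest HFD mouse at 612 CPM (log2FC -0.30 ± 0.22, 95% interval -0.73 to 0.14). Ryr1 had 9947, 8765, 10376 and 10502 CPM, all under the lowest HFD mouse at 11177 CPM (-0.22 ± 0.18, interval -0.57 to 0.14). Stac3 had 116, 123, 109 and 128.6 CPM, the highest just under the lowest HFD mouse at 128.7 CPM (-0.20 ± 0.22, interval -0.62 to 0.23). In each of the 3 the exact permutation P was 0.0286, the smallest possible, and 2.32% of all genes separated in this direction, while edgeR's adjusted P was 0.999. These are the same 3 genes in which every HFD mouse was above every control mouse, and both comparisons share the HFD mice, so neither adds to the other. The 4 HFD mice were also close to each other in these genes, with an SD of 293 CPM around a mean of 11492 CPM for Ryr1 and of 15.7 CPM around 629 CPM for Jph2.

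Metformin also left no gene of the machinery called against the HFD group. By edgeR 0 of the 10 were called at an adjusted P < 0.05 (0.013% of all genes) and 0 at an unadjusted P < 0.05 (8.02% of all genes), DESeq2 and limma called 0, and no gene passed the rule with an absolute log2FC above 1 (1.76% of all genes). The HFD + MET group was the most spread of the treated groups. Jph2 had 538, 465, 283 and 642 CPM in HFD + MET mice 1 to 4, Stac3 had 103, 112, 62.3 and 157 CPM, and Ryr1 had 10135, 10106, 6285 and 10770 CPM. Mouse 3, the library lowest in fibre markers, was the lowest of its group in all 3, and mouse 4, the highest in fibre markers, was the highest. The log2FC values were -0.38 ± 0.22 for Jph2, -0.33 ± 0.22 for Stac3 and -0.30 ± 0.18 for Ryr1, and only Ryr1 had every HFD + MET mouse below every HFD mouse (exact permutation P = 0.0286). The share of all genes separated in this way was not computed. The remaining genes other than Sln had log2FC values between -0.29 (Cacna1s) and -0.13 (Cacng1).

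For the 9 genes other than Sln, the fitted level of both treated groups lay between control and HFD. In the HFD + RSV group edgeR called 0 of the 10 genes at an adjusted P < 0.05 (0.00651% of all genes) and 4 had an unadjusted P < 0.05 (Jph1, Jph2, Stac3 and Sln, where 15.8% of all genes did), and DESeq2 and limma called 0. In the HFD + MET group edgeR called 0 (0.0% of all genes), 3 had an unadjusted P < 0.05 (Jph2, Stac3 and Sln, where 9.5% of all genes did), limma called 0 and DESeq2 called 1, Sln. Stac3 was 0.67 ± 0.22 higher on the log2 scale with resveratrol and 0.54 ± 0.22 with metformin, and Jph2 was 0.65 ± 0.22 and 0.56 ± 0.22 higher. The treated groups could not be separated from each other, since for HFD + RSV against HFD + MET edgeR, DESeq2 and limma called 0 of the 10 (0.0% of all genes by edgeR) and 1, Sln, had an unadjusted P < 0.05 (4.68% of all genes). In the test of a difference between any of the 4 groups, edgeR called 0 of the 10, with the lowest adjusted P values for Sln (0.149), Jph2 (0.192) and Stac3 (0.204), and without HFD + MET mouse 3 it called 2, Jph2 and Stac3. At an unadjusted P < 0.05 that test held Sln (0.00283), Jph2 (0.00691), Stac3 (0.00899) and Jph1 (0.0437), 4 of the 10, where 15.4% of all genes were.

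**Figure D3:**
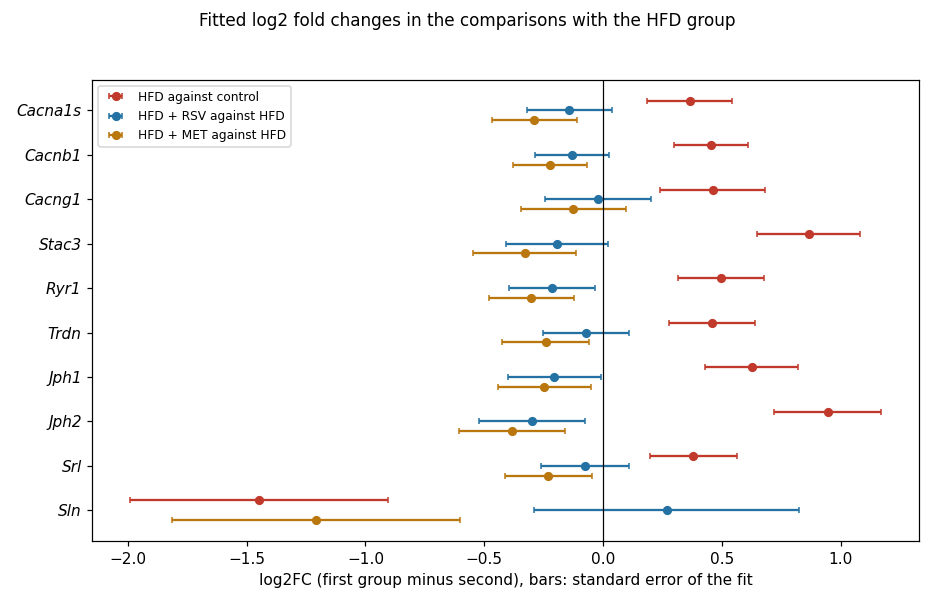
Fitted log2FC (horizontal axis, with standard errors as bars) of the 10 genes for HFD against control and in each treated group against the HFD group. All genes but Sln are above 0 in the first comparison, from 0.36 for Cacna1s to 0.95 for Jph2, and at or below 0 in the other two, from -0.38 to -0.02.

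Sln, the pump inhibitor, did not follow the other 9. Its counts were 12, 33, 104 and 31 in control mice 1 to 4, 17, 9, 23 and 13 in HFD mice 1 to 4, 21, 18, 10 and 25 in HFD + RSV mice 1 to 4, and 6, 15, 4 and 3 in HFD + MET mice 1 to 4. In CPM this was 0.674 to 4.065 in control mice, 0.374 to 1.02 in the HFD group, 0.444 to 1.12 in the HFD + RSV group and 0.108 to 0.562 in the HFD + MET group. Control mice 2, 3 and 4 were above every HFD mouse, control mouse 1 lay within the HFD range, and the HFD and HFD + RSV groups overlapped.

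For HFD against control, the log2FC of Sln was -1.45 ± 0.54 (edgeR adjusted P = 0.128, exact permutation P = 0.114). Among the 10 genes, 1 (Sln) passed the rule of an unadjusted P < 0.05 with an absolute log2FC above 1, which 4.94% of all genes passed. The value rested on control mouse 3, without which it was -0.71 ± 0.48 (edgeR adjusted P = 0.476), and it was -0.60 by limma. That library also had the highest sum of 6 brown adipocyte markers, 894 CPM against 114 to 313 CPM in the others. For HFD + RSV against HFD the log2FC was 0.27 ± 0.56.

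The lowest Sln levels were in the HFD + MET group, where every mouse was below every control mouse (exact permutation P = 0.0286). The share of all genes that separated these 2 groups was not computed. The log2FC against the control group was -2.66 ± 0.59 with an unadjusted P of 0.000428, the rank 29 of 15364 genes, and an adjusted P of 0.216 in edgeR's test. It passed the rule with an absolute log2FC above 1, as 1.63% of all genes did. DESeq2 gave an adjusted P of 0.00770. Leaving out 1 mouse at a time moved it between -3.24 and -1.92, and edgeR's adjusted P between 0.0732 and 0.401. Against the HFD group the log2FC was -1.21 ± 0.61 (edgeR adjusted P = 0.634), and in the HFD + RSV group it was 1.48 ± 0.60 above the HFD + MET group (edgeR adjusted P = 0.962). With 3 to 15 counts in a library, counting error is a large part of these values.

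The slow fibre pump Atp2a2 had 83.9, 826, 379 and 480.5 CPM in control mice 1 to 4 and 91.1 to 153 CPM in the HFD group. Its log2FC was -2.01 ± 0.58 (edgeR adjusted P = 0.0715). The fast fibre pump Atp2a1 had 18906 to 33502 CPM in control mice and 34383 to 36161 CPM in HFD mice (0.52 ± 0.20, edgeR adjusted P = 0.133). Neither pump was called. The 8 slow fibre markers had a median log2FC of -3.54 and the 8 fast fibre markers of 0.52, with none called in either list, and their part in the Sln result was not tested.

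The 5 genes most like Ryr1 over the 16 mice by Spearman rho of log2 CPM were Atp2a1 (0.95), Synm (0.94), Ttll4 (0.94), R3hdm4 (0.94) and Hif1an (0.94), and the 5 most like Sln were Col23a1 (0.84), Klf6 (0.82), Myh7b (0.80), Errfi1 (0.78) and Gm12355 (0.78). The neighbours of Ryr1 include the pump that returns the released calcium and an intermediate filament protein of muscle, synemin. Those of Sln include Myh7b, a myosin heavy chain gene. Col23a1 and Gm12355 had means of 1.52 and 1.55 CPM, so ranks among them rest on few counts.

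The deposited table splits genes into transcripts. Of the 44 transcripts, 40 passed the filter, and edgeR called 0 in each of the 3 comparisons with the HFD group. The shares of all transcripts called were 0.0157% for HFD against control, 0.0% with resveratrol and 0.00449% with metformin. At an unadjusted P < 0.05 there were 19, 1 and 3 of the 40, where 13.1%, 5.02% and 6.07% of all transcripts were, and no other tool was run on transcripts. Transcripts of 1 gene share reads and the sum they divide, so these counts are not separate results. Both transcripts of Jph2 gave like values for HFD against control, 0.97 ± 0.24 for ENSMUST00000017961, which held 93.6% of its counts, and 0.90 ± 0.19 for ENSMUST00000109425. Both have the same coding length of 2091 bases.

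Cacna1s was divided between forms with and without exon 29, the optional exon of 57 bases printed above. ENSMUST00000112068, which lacks it, held 44.9% of the gene's counts, and ENSMUST00000160641 and ENSMUST00000112064, which have it, held 43.7% and 9.34%. The share of the 4 long coding transcripts that carried the exon was 35.8%, 26.8%, 46.3% and 64.3% in control mice 1 to 4 and 52.8%, 53.8%, 43.6% and 58.0% in HFD mice 1 to 4. It was 59.8%, 57.9%, 84.6% and 54.5% in HFD + RSV mice 1 to 4 and 57.95%, 49.4%, 63.1% and 50.2% in HFD + MET mice 1 to 4. The control mice were the most spread and overlapped the HFD mice. The exact permutation P was 0.343 for HFD against control, 0.0857 for HFD + RSV against HFD and 0.514 for HFD + MET against HFD (0.514, 0.257 and 0.514 after Benjamini-Hochberg adjustment over the 3).

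In Cacnb1, ENSMUST00000107561, a short coding form, held 47.8% of the counts, with 32.5% to 72.6% by mouse, and the longer ENSMUST00000017552 held 37.8%. In 2 other genes a transcript was either present or nearly absent, in mice of several groups. In Stac3, ENSMUST00000160019 took 55.8% and 56.3% of the counts of the pair it forms with ENSMUST00000035839 in control mice 2 and 3, 46.8% and 49.0% in HFD mice 2 and 4 and 65.7% in HFD + MET mouse 3, and 1.23% to 2.84% in the other 11 mice. Both transcripts have the same coding length of 1083 bases. In Ryr1, ENSMUST00000032813 has no exon with the exact ends of the 15-base exon printed above and differs by a few bases beside it. Of the pair it forms with ENSMUST00000179893, it took 2.92% and 3.20% in HFD mice 1 and 2, 3.35% in HFD + RSV mouse 3 and 4.47% in HFD + MET mouse 4. It took 0.0698% to 0.169% in the other 12 mice. No control mouse was among those with the higher shares. Counts of transcripts that share most of their exons are estimates, and whether such steps come from exon use or from the estimation was not tested. The sums of counts per gene used above do not depend on this division. The FPKM of a gene does, since each transcript's count is divided by its own length before summing.

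**Figure D4:**
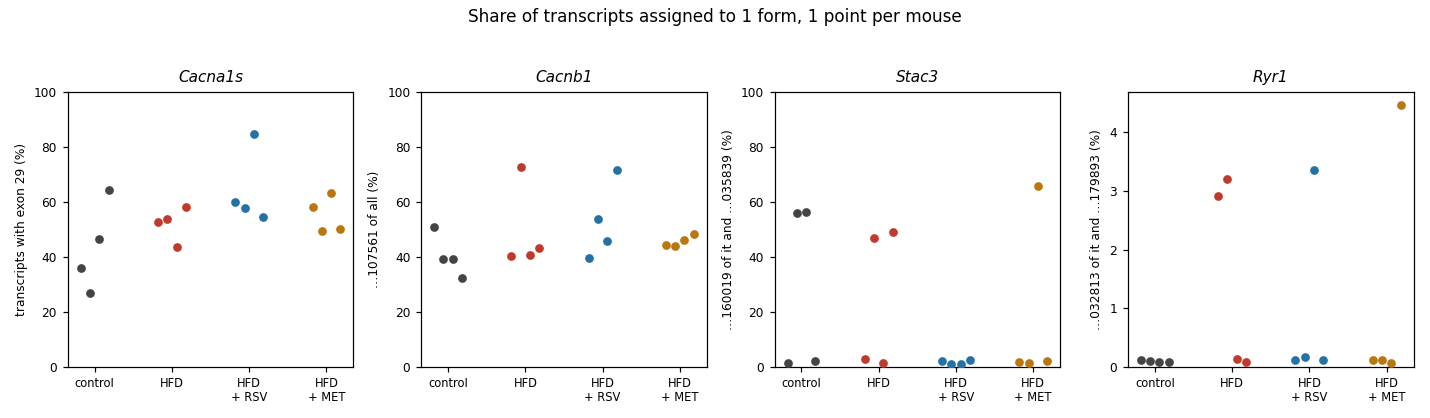
Share in percent of 1 transcript form of Cacna1s, Cacnb1, Stac3 and Ryr1 in each mouse (points) by group, with axes of 0 to 100 for the first 3 and to about the highest value for Ryr1. Stac3 and Ryr1 show steps between mice of the same group, and the Cacna1s share with exon 29 runs from 26.8% to 84.6%.

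A larger difference than that of Jph1 lay downstream of it. The lncRNA table holds 33 transcripts that overlap the span of 1 of the 10 genes, 18 of which passed the filter. Of these, 7 were called higher in HFD than in control mice and none lower, where 1.61% of the 17599 lncRNA transcripts tested were called. All 7 lie one after another downstream of the main Jph1 transcript (99.9% of the gene's counts, ending at base 16994938 of chromosome 1 on the minus strand), 7525 to 25635 bases past its 3′ end. They lie in introns of ENSMUST00000186024, a transcript annotated for nonsense-mediated decay that held 0.102% of the gene's counts. As neighbours at the same place that moved together, the 7 are not separate results, and their number cannot be set against the share of all lncRNAs as such. The strand of the lncRNAs is not given.

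Their log2FC values ran from 1.35 ± 0.30 (NONMMUT077384.1, edgeR adjusted P = 0.0396) to 1.85 ± 0.31 (NONMMUT077386.1, edgeR adjusted P = 0.0177), against 0.62 ± 0.20 for Jph1. The lowest adjusted P in edgeR's test was 0.0116, for NONMMUT077381.1 and NONMMUT077382.1, at 1.70 ± 0.23 and 1.79 ± 0.27. NONMMUT077387.1, the nearest to Jph1, had 38, 43, 30 and 46 counts in control mice 1 to 4 and 147, 142, 146 and 88 counts in HFD mice 1 to 4. Every HFD mouse was above every control mouse. Summed, the 7 had 231, 269, 195 and 200 counts in control mice 1 to 4 and 723, 806, 741 and 462 counts in HFD mice 1 to 4.

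As a ratio chosen after the values were seen, the 7 had 21.4, 21.2, 23.3 and 25.1 counts per 1000 Jph1 counts in control mice 1 to 4, and 44.7, 47.5, 45.9 and 36.0 in HFD mice 1 to 4. The HFD + RSV group had 30.9, 42.8, 47.8 and 37.6, and the HFD + MET group 48.4, 37.2, 39.6 and 38.2. All 12 mice on the high-fat diet were above all 4 control mice. How often such a ratio separates the groups over all transcripts was not computed. Against the control group, edgeR called 0 of the 7 in the HFD + RSV group (log2FC 1.12 to 1.57, lowest adjusted P = 0.0942). In the HFD + MET group it also called 0 (1.00 to 1.55, lowest adjusted P = 0.0813). The part of fibre amount or fibre type in this ratio was not tested. Neither treatment moved these transcripts past the test against the HFD group. The log2FC values were -0.48 to -0.22 with resveratrol and -0.57 to -0.15 with metformin, 0 of the 18 overlapping transcripts were called in either comparison by edgeR, the only tool run on them, and 0.0114% and 0.0% of all lncRNA transcripts were called. Without control mouse 2 none of the 18 was called for HFD against control, without control mouse 3 or HFD mouse 3 there were 2, and without control mouse 4 or HFD mouse 2 there were 4.

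**Figure D5:**
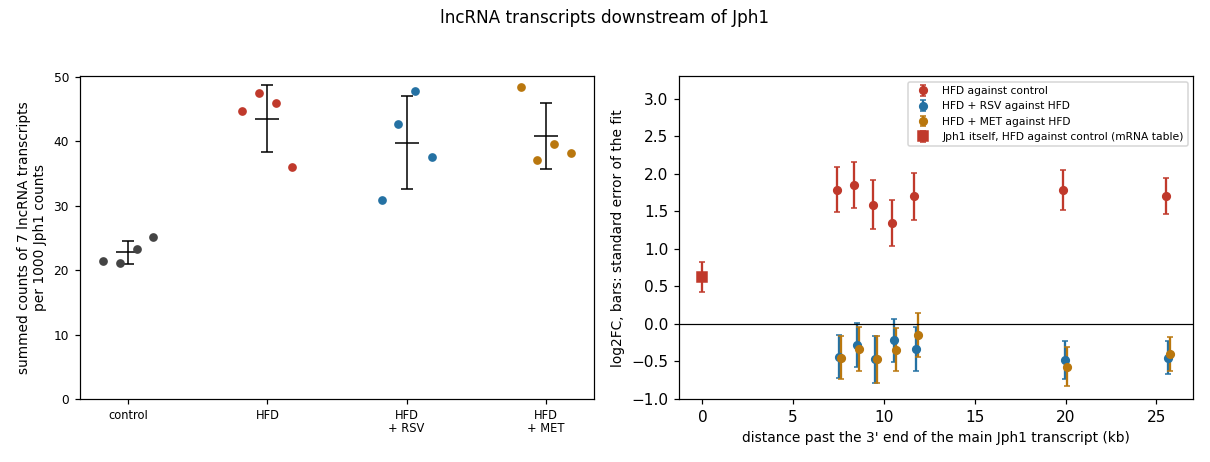
Left, summed counts of the 7 lncRNA transcripts downstream of Jph1 per 1000 Jph1 counts (vertical axis, from 0) in each mouse, with group mean and SD. Right, their log2FC with standard errors against their distance in kb past the 3′ end of the main Jph1 transcript, with Jph1 itself at distance 0, showing the values above 1.3 for HFD against control and below 0 for both treatments.

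The other lncRNA with many counts was NONMMUT005206.2 (chr10:33474572-33476644), which lies inside the last exon of Trdn. It held 168801 counts over the 16 libraries, more than the 143719 of Trdn itself, and had a log2FC of 0.53 ± 0.21 for HFD against control, close to the 0.46 ± 0.18 of Trdn, without a call (edgeR adjusted P = 0.199). Reads from the 2 annotations cannot be told apart at this place. With the counts of exon-overlapping lncRNAs added to each gene, the calls of Jph2 and Stac3 were kept. No lncRNA of the table overlapped Cacng1, Srl or Sln.

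The wider calcium handling genes, 98 in 7 lists of which 92 were tested, gave 2 of the 92 called higher for HFD against control and none lower, near the 1.32% and 1.11% of all genes, and their median log2FC was 0.20 against -0.02 over all genes. At an unadjusted P < 0.05, 32 were higher and 5 lower, where 11.7% and 12.5% of all genes were. Of the called genes, Micu3, a regulator of mitochondrial calcium uptake, had 10.3 to 12.97 CPM in control mice and 13.6 to 19.2 CPM in HFD mice (0.56 ± 0.12, edgeR adjusted P = 0.0418). Every HFD mouse was above every control mouse in Micu3. These calls also depended on single libraries, since leaving out any 1 of control mice 2, 3 and 4 or HFD mice 1, 2 and 3 left no gene of the lists called.

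By list, the partners of the release channel had 1 of 19 tested genes called and 8 higher at an unadjusted P < 0.05. Among them the luminal calcium buffer Casq1 (0.96 ± 0.27) had an edgeR adjusted P value of 0.0673. Casq1 had 1502, 800, 802 and 905 CPM in control mice 1 to 4 and 1724 to 2065 CPM in the HFD group, so it too separated the groups. The store-operated entry, extrusion and mitochondrial list had 1 of 18 called, and the voltage sensor partners (10 tested), junction and T-tubule genes (10), pump regulators and buffers (9), membrane excitability genes (12) and calcium-dependent signalling genes (14) had none, with 4, 3, 2, 3 and 8 higher at an unadjusted P < 0.05. In the last list, 13 of 14 genes had a positive log2FC, as 47.6% of all genes tested did, and none was called. Among the 13 were the kinase Camk2a (0.83 ± 0.23) and the calcineurin subunit Ppp3ca (0.50 ± 0.15), both chosen after their values were seen.

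Against the HFD group, neither treatment had a called gene in any of the 7 lists by edgeR, DESeq2 or limma. At an unadjusted P < 0.05 there were 2 of the 92 with resveratrol, both lower, and 7 with metformin, 4 higher and 3 lower, where 4.72% and 8.02% of all genes were, so neither count was above that of all genes. Rcan1, a calcineurin inhibitor whose expression follows calcineurin activity, was in both sets and was chosen after its values were seen. Mean levels of Rcan1 were 75.0 (control), 130 (HFD), 79.97 (HFD + RSV) and 62.2 CPM (HFD + MET). Control mice 1 to 4 had 50.9, 97.8, 54.3 and 97.0 CPM. HFD mice 1 to 4 had 95.0, 189, 120 and 115 CPM. HFD mouse 1 thus lay below control mice 2 and 4, and Rcan1 was not called for HFD against control. With resveratrol Rcan1 ranged from 52.2 to 108 CPM, and the highest, mouse 3, lay above HFD mouse 1. With metformin the range was 46.3 to 76.0 CPM, below every HFD mouse. The log2FC values were -0.70 ± 0.28 for resveratrol (edgeR adjusted P = 0.999) and -1.06 ± 0.28 for metformin (edgeR adjusted P = 0.519).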

How the data were processed

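RNA of skeletal muscle from 16 mice was sequenced, 1 library per mouse. The study removed ribosomal RNA and sequenced paired ends on an Illumina NovaSeq. The submitters' processing notes name fastp, HISAT2 and GRCm38, and the paper names StringTie for quantification. The authors deposited estimated counts per transcript for mRNAs and lncRNAs, with an FPKM value beside each count. The deposited FPKM equals the count divided by transcript length and by the total of both tables. Transcripts of 1 gene share reads, so their counts are estimates, which sums of counts per gene avoid. The FPKM of a gene is the sum over its transcripts and still depends on how reads were divided among them. Of the mRNA transcripts, 97.4% have GENCODE M21 coordinates. In the mRNA table, 4 transcripts broken over 2 lines were joined, and no 2 libraries were identical.

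Counts were summed per gene name, filtered with filterByExpr (minimum count 10, minimum total 15), scaled by TMM and fitted with edgeR 4.0.16 in R 4.3.3 (glmQLFit, robust, 16 mice in 1 fit). P-values were adjusted by Benjamini-Hochberg over all genes, and genes were called at an adjusted P < 0.05. A looser rule of an unadjusted P < 0.05 with an absolute log2FC above 1 was used beside it. The study used these limits and names false discovery rate control for its P-values. SE is the absolute log2FC divided by the square root of F, and intervals are 1.96 SE to each side. Such intervals are narrower than those that match edgeR's unadjusted P < 0.05. Exact two-sided permutation tests used log2 CPM with a prior count of 2. DESeq2 1.42.0, limma 3.58.1 on log2(FPKM + 1) and other settings were alternatives. Limma's differences are on that scale. The edgeR fit was tested on simulated data. Replicates are mice, and the spread measured is that between mice. Numbers in the mouse labels were not taken to pair mice of different groups.

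The 10 genes and the lists of other genes were chosen with earlier results of these data known. Text names the 10 genes, genes of the wider lists called in a comparison with the HFD group, the 5 genes most like Ryr1 and Sln, transcripts with 10% of a gene's counts, called lncRNAs or the most abundant one, and marker lists. Atp2a1, Atp2a2, Casq1, Camk2a, Ppp3ca, Rcan1, ENSMUST00000109425, ENSMUST00000112064 and ENSMUST00000032813 were chosen after their values were seen. The values of 1 called gene of the wider lists are not reported here.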

Additional observations from a re-analysis of the deposited data

Results flagged for a closer look

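In 6 of the 40 combinations of gene and group, 1 of the 4 mice lay far from the other 3 by Dixon's test, where chance gives about 1 in 20. The lowest HFD + MET mouse stood apart for Cacnb1 at 64.2 CPM and for Ryr1 at 6285 CPM, and it was mouse 3 in both, the library lowest in fibre markers. The lowest HFD mouse stood apart for Cacng1 at 131 CPM (mouse 2) and for Jph1 at 590 CPM (mouse 4). The lowest HFD + RSV mouse stood apart for Cacng1 at 114 CPM (mouse 1). The highest control mouse stood apart for Jph2 at 486 CPM, and it was control mouse 1, the only control with the fibre marker level of the HFD mice.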

How the results depend on the processing

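The mouse labels end in numbers that recur between groups, with no meaning given. Of the pairs of mice with the same last number in the 3 comparisons with the HFD group, 4 of 11 had deviations from their group means that correlated above 0.1, from -0.358 to 0.298, and not every mouse correlated best with its own number, so the number was not taken to pair mice. With it as a replicate block, a fit in which control mouse 1 has no partner, 0 of the 10 genes and 0 of the wider genes were called for HFD against control. For HFD against control, 2 of the 10 genes were called, and 0 without the filter on low counts, 4 without the HFD + MET group, 5 by DESeq2, 0 when scaled to 8 fibre markers, and 0 to 5 when 1 mouse was left out. The other settings, including RLE, unscaled totals, non-robust estimation, the 8 mice alone, limma, added lncRNA counts and the 2 libraries with most adipocyte RNA left out, gave 2. For HFD + RSV against control 1 gene (Stac3) was called without the HFD + MET group, and for HFD + MET against control 1 (Sln) by DESeq2. The test across 4 groups called 0, and 0 to 2 when 1 mouse was left out. Of the wider genes 2 were called, and 1 with unscaled totals, without the filter and by limma, 24 without the HFD + MET group, 12 in the 8 mice alone, 23 by DESeq2, 9 without the 2 libraries, 0 when scaled to fibre markers and 0 to 19 when 1 mouse was left out. Of the lncRNAs 7 were called, and 0 to 7 when 1 mouse was left out. The cause was not tested.

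The sign changed where a value was near 0. Scaled to fibre markers, Cacna1s (-0.039) and Srl (-0.027) changed sign for HFD against control, as did Cacng1 (0.061), Trdn (0.019) and Srl (0.016) for HFD + RSV against HFD and Cacng1 (0.038) for HFD + MET against HFD. For HFD + RSV against HFD, Cacng1 was 0.030 with unscaled totals, 0.025 by limma and -0.084 to 0.085 when 1 mouse was left out, and Trdn was 0.066 by limma. For HFD + MET against HFD, Cacng1 was -0.25 to 0.061 when 1 mouse was left out and 0.061 without the 2 libraries. The planned addition of lncRNA counts on the same strand was not run, since the table gives no strand, and either strand was used. The settings for the block, fibre markers, the 2 libraries, lncRNA counts, the wider genes, the lncRNAs and the test across groups were added after seeing the data.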
